A study of Bos taurus with 22 samples.

Results

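MVK, DHCR7 and SPRING1 are 3 of the 27607 genes in the count table, and 3 of the 13535 genes that passed the filter on low counts. MVK encodes mevalonate kinase, an enzyme of the mevalonate arm of sterol synthesis. DHCR7 encodes 7-dehydrocholesterol reductase, which makes cholesterol in the last step of one branch of the pathway. SPRING1 encodes a membrane protein needed for the cleavage of the sterol regulatory element binding proteins (SREBPs). They were matched by symbol to the Ensembl identifiers of the table. These genes were chosen by results of the contrast between Fertile and Sub-Fertile heifers: the gene names at hand cover only genes with small fertility p-values. Their fertility values are therefore given as a description with no test. Tests are given for breed and for the breed by fertility interaction, differences that the choice did not use. These tests rest on much the same spread between heifers as the fertility p-values, so they are not wholly independent of the choice.

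The transcripts were measured in circulating white blood cells, the buffy coat of blood after lysis of red cells, with 1 library of polyadenylated RNA per heifer. There were 5 Fertile and 7 Sub-Fertile purebred Angus heifers, averaging 14 months in age, and 5 Fertile and 5 Sub-Fertile purebred Holstein heifers, averaging 12 months. All heifers were bled at their first artificial insemination, after estrus synchronization with GnRH, prostaglandin and a progesterone device, left in place for 7 days in Angus and 5 days in Holstein heifers. Fertile heifers calved from that insemination. Angus Sub-Fertile heifers did not become pregnant after 2 inseminations and a bull, whereas Holstein Sub-Fertile heifers needed at least 4 inseminations or did not become pregnant. Breed therefore cannot be told apart from age, synchronization and management, and Sub-Fertile is not the same class in both breeds.

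Cells make cholesterol from acetyl-CoA. Mevalonate is made first, mevalonate kinase phosphorylates it, and later enzymes build squalene, lanosterol and, through many further steps, cholesterol. When sterols in the endoplasmic reticulum are low, SCAP carries SREBPs to the Golgi apparatus, where site-1 protease, helped by SPRING, and site-2 protease release their active part, which raises transcription of most genes of the pathway. When sterols are high, SCAP is retained in the endoplasmic reticulum and the cleavage stops. These roles are known mainly from human and rodent cells. In leukocytes the pathway supplies membranes for dividing cells and the prenyl groups of small GTPases.

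All 3 genes are annotated as protein-coding in the Ensembl annotation of ARS-UCD1.2. MVK (ENSBTAG00000005183) lies on chromosome 17 from 63607270 to 63628642, and SPRING1 (ENSBTAG00000047139) on the same chromosome from 58250440 to 58266919. DHCR7 (ENSBTAG00000016465) lies on chromosome 29 from 48285096 to 48304702. In the order of genes of the RefSeq annotation of ARS-UCD2.0, MVK stands beside FAM222A and MMAB and DHCR7 beside ACTE1 and NADSYN1, and neither overlaps another gene. SPRING1 stands between RNFT2 and MED13L and overlaps 1 long non-coding RNA gene, LOC104974658. The strand setting of the counting was not given in the sources used here. Counts of SPRING1 could hold reads of that gene.

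Total counts were 12182400 to 49228035 per heifer (median 23158374), and no 2 heifers had identical counts. Abundance is given as CPM, a share of the total count of the heifer scaled to 1000000 counts, which is not corrected for gene length, so levels are compared between heifers and not between genes. MVK had 442 to 2710 counts, DHCR7 665 to 3641 and SPRING1 327 to 1540, for which counting error alone gives a coefficient of variation of 1.92 to 4.76%, 1.66 to 3.88% and 2.55 to 5.53%. Of the markers of white blood cells with a name here, CSF3R of neutrophils averaged 283 CPM and BANK1 of B cells 352 CPM, while the listed markers of T cells, monocytes, natural killer cells and red cells were not analysed here. In such a mixture of cells, fewer cells of a type and less RNA per cell cannot be told apart.

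In 8 close pairs, each heifer was the nearest of the other and the spread between them was under 0.5 of the median of all 231 pairings. The biological coefficient of variation, the spread between 2 libraries beyond counting error, was 0.0378 to 0.0829 in these close pairs and 0.0981 to 0.261 in the other 223 pairings. The pairs were 1 with 11, 5 with 6, 7 with 16, 8 with 12, 10 with 18, 13 with 22, 14 with 20 and 15 with 19. Of these pairs 4 were of both breeds and 6 of both fertility classes, and neither the labels nor the study's methods name a pairing. P-values below take the heifers as independent, which these pairs put in doubt. Values with the pairs as blocks are given for fertility and breed, and with the pairs averaged for the correlations between the genes. The interaction and the marker relations were not run in that way.

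MVK, the kinase of the mevalonate arm, averaged, in Angus heifers, 42.7 ± 8.59 CPM (SD, n = 5) when Fertile and 38.6 ± 5.68 CPM (SD, n = 7) when Sub-Fertile. The Angus Fertile heifers were at 33.6, 38.1, 39.2, 47.8 and 55.0 CPM (heifers 22, 21, 19, 18 and 20). The Angus Sub-Fertile heifers ranged from 33.6 to 50.9 CPM with a median of 37.8 CPM. The groups overlapped, with 1 of 5 Angus Fertile heifers, heifer 20, above every Angus Sub-Fertile heifer, and Angus Sub-Fertile heifer 14, the partner of heifer 20 in a close pair, stood far above the next of its group at 38.7 CPM.

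In Holstein heifers MVK was at 43.0 ± 7.25 CPM (SD, n = 5) in Fertile and 34.8 ± 3.63 CPM (SD, n = 5) in Sub-Fertile animals. The Holstein Fertile heifers were at 31.5, 41.1, 44.8, 47.0 and 50.5 CPM (heifers 6, 8, 7, 10 and 9). The Holstein Sub-Fertile heifers were at 31.2, 33.6, 33.9, 34.6 and 40.9 CPM (heifers 1, 5, 3, 2 and 4). Of the Holstein Fertile heifers 4 of 5 lay above every Holstein Sub-Fertile heifer. The exception, heifer 6, was as low as the Sub-Fertile heifers, and its close-pair partner was Holstein Sub-Fertile heifer 5 at 33.6 CPM.

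DHCR7, the reductase of the last step, averaged, in Angus heifers, 73.0 ± 11.4 CPM (SD, n = 5) when Fertile and 66.5 ± 8.77 CPM (SD, n = 7) when Sub-Fertile. The Angus Fertile heifers were at 57.8, 67.7, 70.7, 83.5 and 85.2 CPM (heifers 20, 22, 18, 19 and 21). The Angus Sub-Fertile heifers ranged from 56.5 to 81.2 CPM with a median of 66.9 CPM. The ranges overlapped over most of their length, and 2 of 5 Angus Fertile heifers, 19 and 21, lay above every Angus Sub-Fertile heifer.

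In Holstein heifers DHCR7 was at 69.9 ± 9.27 CPM (SD, n = 5) in Fertile and 62.8 ± 9.72 CPM (SD, n = 5) in Sub-Fertile animals. The Holstein Fertile heifers were at 58.1, 66.2, 66.7, 77.3 and 81.2 CPM (heifers 6, 9, 7, 8 and 10). The Holstein Sub-Fertile heifers were at 47.0, 62.3, 65.0, 66.2 and 73.4 CPM (heifers 5, 3, 1, 4 and 2). Here too 2 of 5 Fertile heifers, 8 and 10, lay above every Sub-Fertile heifer, and the lowest value of all heifers was that of Sub-Fertile heifer 5.

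SPRING1, the helper of SREBP cleavage, varied least of the 3 genes. Its mean was 27.8 ± 2.44 CPM (SD, n = 5) among Fertile Angus heifers, with 25.2, 26.0, 27.5, 29.0 and 31.3 CPM in heifers 22, 18, 21, 19 and 20. Its mean was 25.8 ± 1.36 CPM (SD, n = 7) among Sub-Fertile Angus heifers, from 24.5 to 28.2 CPM with a median of 25.3 CPM. Of the Angus Fertile heifers 2 of 5, heifers 19 and 20, lay above every Angus Sub-Fertile heifer, and 3 of 7 Angus Sub-Fertile heifers lay below every Angus Fertile heifer.

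In Holstein heifers SPRING1 was at 25.8 ± 1.55 CPM (SD, n = 5) in Fertile and 22.9 ± 1.12 CPM (SD, n = 5) in Sub-Fertile animals. The Holstein Fertile heifers were at 23.5, 25.6, 26.1, 26.2 and 27.8 CPM (heifers 6, 8, 9, 10 and 7). The Holstein Sub-Fertile heifers were at 21.3, 22.6, 22.9, 23.1 and 24.5 CPM (heifers 4, 3, 1, 5 and 2). The groups met in a narrow zone, since 4 of 5 Fertile heifers lay above every Sub-Fertile heifer and 4 of 5 Sub-Fertile heifers lay below every Fertile heifer. The heifers in that zone were Fertile heifer 6 and Sub-Fertile heifer 2. MVK, DHCR7 and SPRING1 were chosen on this contrast, and the share of all genes with such counts of heifers is not given. Nothing is therefore read from these counts, here or in the paragraphs above.

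**Figure D1:**
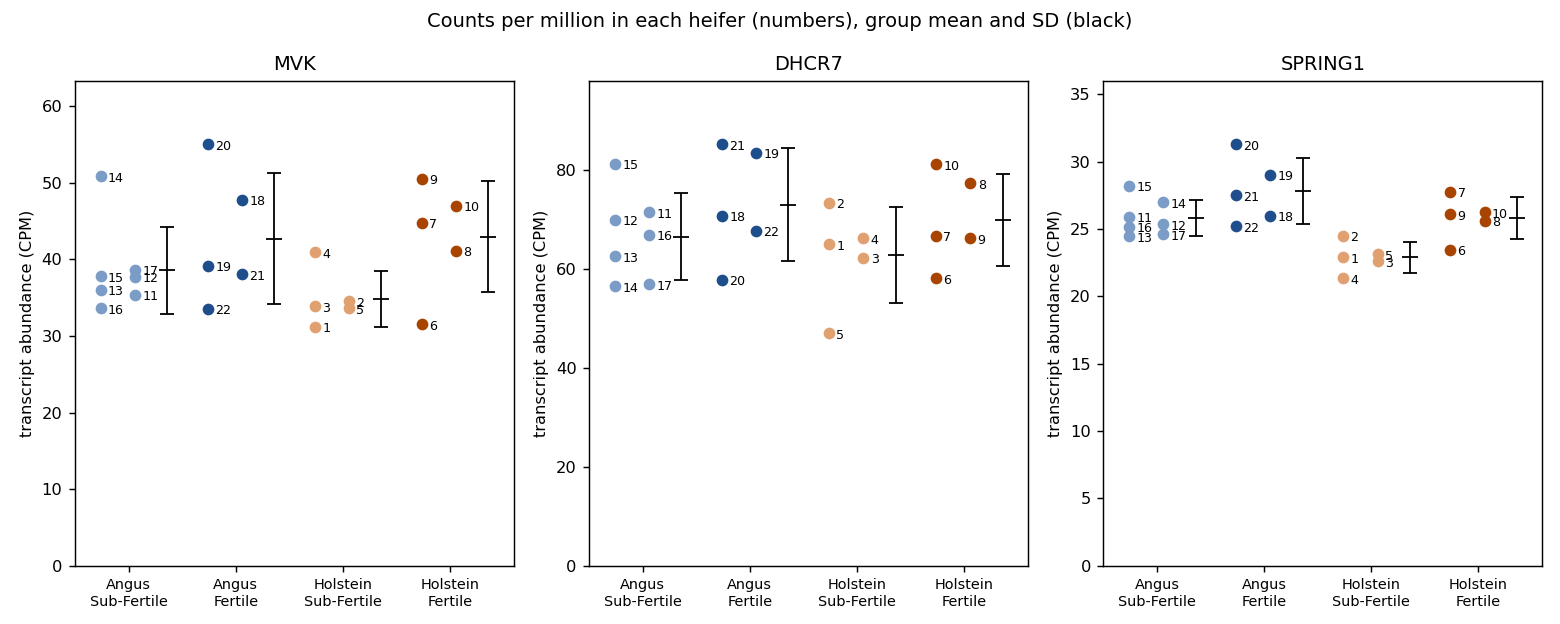
Transcript abundance in CPM (y axis, from 0) of MVK, DHCR7 and SPRING1 in each heifer, by group of breed and fertility (x axis). Points are heifers with their numbers, black bars are group means with SD. In each panel the Fertile mean lies above the Sub-Fertile mean of the same breed and the points overlap, as for MVK with 43.0 ± 7.25 CPM in Holstein Fertile and 34.8 ± 3.63 CPM in Holstein Sub-Fertile heifers.

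On the log2 scale the ratio of Fertile to Sub-Fertile heifers (log2 fold change), estimated by edgeR with breed in the model, was 0.22 for MVK (standard error 0.0925), 0.14 for DHCR7 (standard error 0.0843) and 0.14 for SPRING1 (standard error 0.0469). These are folds of 1.16, 1.10 and 1.10. All 3 were above 0, as were 49.0% of all genes tested, whose median was -0.002, but this direction belongs to the choice of the genes and nothing is read from it. Across all genes 0 passed an adjusted p of 0.05 for fertility (0.0% of 13535) by the edgeR quasi-likelihood test with Benjamini-Hochberg adjustment. By the DESeq2 Wald test the number was also 0, and 354 genes had an unadjusted edgeR p under 0.05, against 529 by DESeq2.

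The fertility difference of each gene had the same sign in both breeds. The genes were chosen by the contrast over both breeds, which favours equal signs, so nothing is read from this agreement. For Angus heifers alone the log2 fold change was 0.15 for MVK (standard error 0.129), 0.13 for DHCR7 (standard error 0.113) and 0.11 for SPRING1 (standard error 0.0751). In Holstein heifers alone it was 0.30 for MVK (standard error 0.122), 0.15 for DHCR7 (standard error 0.123) and 0.17 for SPRING1 (standard error 0.0711). When each heifer was left out in turn, MVK ranged from 0.17 without heifer 20 to 0.26 without heifer 22, DHCR7 from 0.10 without heifer 5 to 0.18 without heifer 20, and SPRING1 from 0.12 without heifer 20 to 0.16 without heifer 22. Heifer 20 carried the highest MVK and SPRING1 values of all heifers and the lowest DHCR7 value of its group, so leaving it out moved the genes in opposite ways.

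With the close pairs as blocks and breed also in the model, fertility was compared within pairs, of which 6 were of both fertility classes. Heifers 7 and 16, and heifers 8 and 12, also differed in breed. The differences given below for these pairs are not corrected for breed. The log2 fold change was then 0.06 for MVK (standard error 0.0633), 0.10 for DHCR7 (standard error 0.0522) and 0.10 for SPRING1 (standard error 0.0515), and the median over all genes was 0.02. MVK was higher in the Fertile heifer of 4 of the 6 pairs, with log2 differences from -0.10 in heifers 22 and 13 to 0.41 in heifers 7 and 16 (median 0.08). DHCR7 was higher in 5 of 6 pairs, from -0.004 in heifers 7 and 16 to 0.31 in heifers 6 and 5 (median 0.08). SPRING1 was higher in 6 of 6 pairs, from 0.02 in heifers 8 and 12 to 0.21 in heifers 20 and 14 (median 0.04). The pair with the largest MVK difference thus had nearly equal DHCR7, at 66.7 and 66.9 CPM. The genes were chosen on fertility values of these same heifers, and the share of all genes with such counts of pairs is not given. Nothing is therefore read from the counts of pairs.

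The breed comparison asked whether the genes differed between Holstein and Angus heifers with fertility in the model. Of the 3 genes, SPRING1 had the largest value, -0.14 for the log2 ratio of Holstein to Angus heifers (standard error 0.0471, 95% interval -0.23 to -0.05), a fold of 0.906. Its unadjusted edgeR quasi-likelihood p was 0.00611, and it did not pass after Benjamini-Hochberg adjustment over all genes (adjusted p = 0.437). Of the Angus Sub-Fertile heifers 6 of 7 lay above every Holstein Sub-Fertile heifer, and of the Angus Fertile heifers 2 of 5 lay above every Holstein Fertile heifer. The share of all genes with such counts of heifers is not given, and nothing is read from them. Of all genes 0.0% passed the adjusted threshold for breed and 10.6%, 1440 genes, had an unadjusted p under 0.05, so SPRING1 was 1 among many. The DESeq2 Wald test gave SPRING1 an adjusted p of 0.166 and 15 genes past the threshold, and over the other settings and heifers left out the adjusted edgeR p was between 0.182 and 0.99999. The last value is that of the fit with the close pairs as blocks, which compares breeds within 4 pairs only and gave a log2 fold change of -0.05 (standard error 0.0655).

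MVK and DHCR7 showed smaller breed differences that did not pass the test. The log2 fold change of Holstein over Angus was -0.08 for MVK (standard error 0.0928, 95% interval -0.26 to 0.11) and -0.07 for DHCR7 (standard error 0.0845, 95% interval -0.24 to 0.09), with adjusted edgeR p-values of 0.780 and 0.771. Within the close pairs of both breeds the sign turned, with 0.04 for MVK and 0.01 for DHCR7. The intervals leave room for differences of about the size seen for SPRING1.

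The interaction asked whether the fertility difference of a gene differed between the breeds. The fertility log2 fold change was larger in Holstein than in Angus heifers by 0.16 for MVK (standard error 0.187, 95% interval -0.21 to 0.52), by 0.02 for DHCR7 (standard error 0.173, 95% interval -0.32 to 0.36) and by 0.07 for SPRING1 (standard error 0.0952, 95% interval -0.12 to 0.25). None passed the edgeR quasi-likelihood test with Benjamini-Hochberg adjustment (adjusted p = 0.756, 0.973 and 0.808). Of all genes 0.0% passed that threshold for the interaction, by DESeq2 likewise 0 genes, and 10.4% had an unadjusted edgeR p under 0.05. With 1 heifer left out, the value for MVK ranged from 0.08 without heifer 14 to 0.27 without heifer 20, and that for SPRING1 from 0.03 without heifer 22 to 0.11 without heifer 20. The sign for DHCR7 was not stable: it turned to -0.06 without heifer 5 and to -0.05 without heifer 20, and also without heifers 8, 10, 15 or 22.

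**Figure D2:**
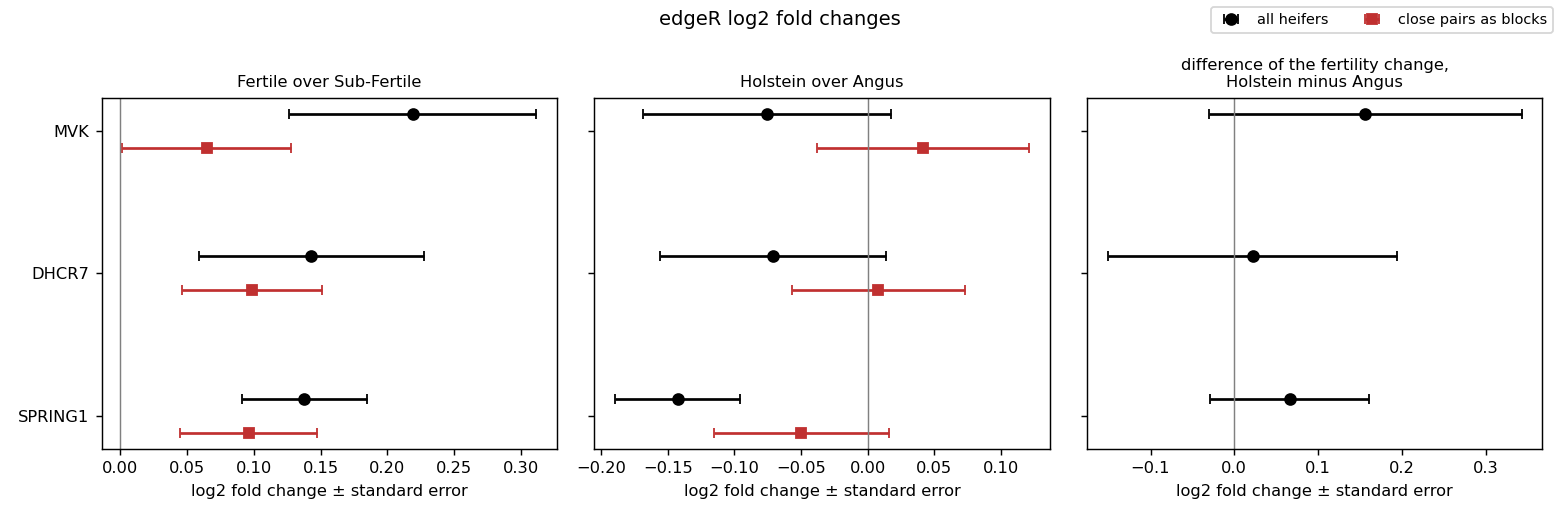
Log2 fold changes from edgeR (x axis, bars are standard errors) of MVK, DHCR7 and SPRING1 (y axis) for Fertile over Sub-Fertile, Holstein over Angus, and the difference of the fertility change between breeds. Black circles use all heifers and red squares the close pairs as blocks. Under blocks the fertility value of MVK fell from 0.22 to 0.06 and the breed value of SPRING1 moved from -0.14 to -0.05.

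Other genes of sterol synthesis, SREBP control, sterol uptake and efflux, and fatty acid synthesis are not reported here, so the values above describe these 3 genes and not the pathway as a whole. Of the 3, 0 passed an adjusted p of 0.05 for breed or interaction by the edgeR quasi-likelihood test.

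The spread between heifers was not the same in the 3 genes. With breed and fertility in the model, the biological coefficient of variation was 15.4% for MVK and 14.2% for DHCR7, close to the median of 15.5% over all genes. For SPRING1 it was 8.53%, and 3.69% of genes had a lower one. The choice by small fertility p-values favours genes of low spread where the difference is small. This rank may therefore follow in part from the choice, and nothing is read from it. From the lowest to the highest heifer MVK spanned 1.76-fold, DHCR7 1.81-fold and SPRING1 1.47-fold. Within groups the spread exceeded counting error: the coefficient of variation of MVK was 10.4 to 20.1% where counting error gives 2.95 to 3.68%, and that of DHCR7 was 13.2 to 15.7% where counting error gives 2.22 to 2.83%. That of SPRING1 was 4.92 to 8.78% where counting error gives 3.63 to 4.61%. It was farthest from counting error in Angus Fertile heifers (8.78% against 3.63%) and nearest in Holstein Sub-Fertile heifers (4.92% against 4.54%). Whether these values differ from counting error was not tested, and the last 2 are nearly equal.

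The 2 heifers of a close pair were mostly nearer to each other in these genes than other heifers were. The close pairs were found from the counts of genes averaging over 20 CPM, which include these genes. The smaller differences therefore follow in part from how the pairs were defined, and nothing is read from them. The median log2 difference between 2 heifers, without sign, was 0.11 in close pairs and 0.23 in other pairings for MVK, 0.12 and 0.22 for DHCR7, and 0.04 and 0.13 for SPRING1. Heifers 14 and 20 had the highest MVK values, 50.9 and 55.0 CPM, and both had low DHCR7, 56.5 and 57.8 CPM. Heifers 15 and 19 were both high in DHCR7, at 81.2 and 83.5 CPM, and in SPRING1, at 28.2 and 29.0 CPM, but not in MVK, at 37.8 and 39.2 CPM. Heifers 10 and 18 were nearly equal in MVK, at 47.0 and 47.8 CPM, and in SPRING1, at 26.2 and 26.0 CPM, although 1 is Holstein and the other Angus, but they differed in DHCR7, at 81.2 and 70.7 CPM. In the pairs 14 and 20 and 15 and 19 a Fertile heifer was joined with a Sub-Fertile one.

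**Figure D3:**
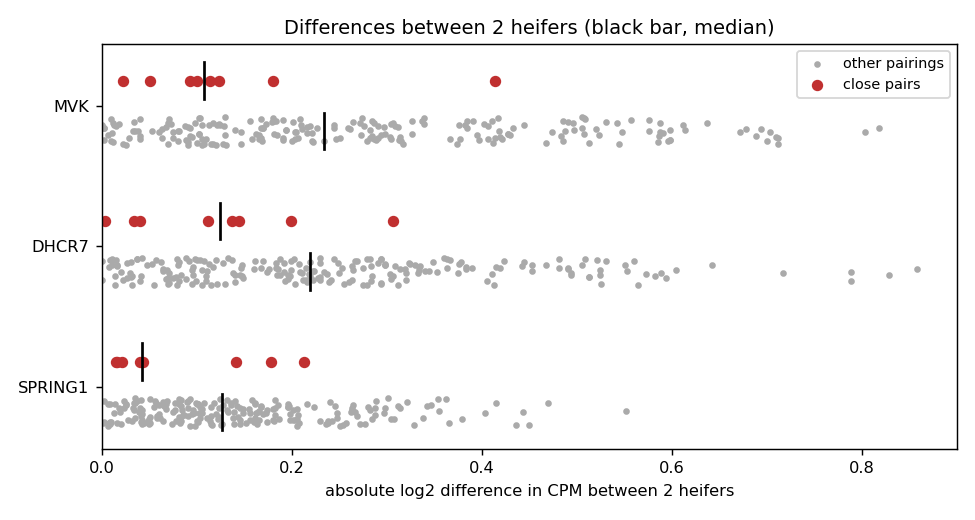
Absolute log2 difference in CPM between 2 heifers (x axis) for MVK, DHCR7 and SPRING1 (y axis, with points spread in height to set them apart). Close pairs are red, 8 per gene, grey points are the other 223 pairings, and black bars the medians. These are 0.11 and 0.23 for MVK, 0.12 and 0.22 for DHCR7 and 0.04 and 0.13 for SPRING1. The close pairs were found from counts that include these genes.

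Whether the 3 genes moved together from heifer to heifer was asked with log2(CPM + 1) values from which the mean of each of the 4 groups had been taken out. MVK and SPRING1 had a Pearson r of 0.483 over 22 heifers (permutation p = 0.0228, adjusted over the 3 pairs of genes p = 0.0685) and a Spearman rho of 0.415 (permutation p = 0.0548, adjusted p = 0.165). This did not pass the adjusted threshold. Without heifers 14 and 20, which lie farthest from the median of MVK, r was 0.291, so the relation rests in part on these heifers. Of single heifers, leaving out heifer 20 gave 0.326, heifer 6 gave 0.357, heifer 22 gave 0.391 and heifer 14 gave 0.456. Heifers 6 and 22 were low in both genes. With close pairs averaged to 1 point each, r was 0.301 (adjusted permutation p = 0.629). In the opposite direction, it passed without heifer 4 (r = 0.613, adjusted permutation p = 0.0105), 15, 18 or 19, and over all heifers left out in turn r was between 0.326 and 0.613. Among the other 13534 genes, SPRING1 ranked 579 by its r to MVK.

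DHCR7 had weaker correlations with both genes. Its r to MVK was -0.148 (permutation p = 0.510, adjusted p = 0.510) with a rho of -0.112 (permutation p = 0.616, adjusted p = 0.616), and r was 0.190 without heifers 14 and 20. Its r to SPRING1 was 0.154 (permutation p = 0.493, adjusted p = 0.510) with a rho of 0.233 (permutation p = 0.295, adjusted p = 0.443), and r was 0.506 without heifers 5 and 20. Leaving out 1 heifer moved the latter r from 0.0256 without heifer 15 to 0.456 without heifer 20. With close pairs averaged, r was -0.142 to MVK and 0.233 to SPRING1 (adjusted permutation p = 0.630 and 0.629). The sign between MVK and DHCR7 thus rested on the close pair of heifers 14 and 20, with high MVK and low DHCR7. By r to MVK, DHCR7 ranked 10885 of 13534 genes.

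**Figure D4:**
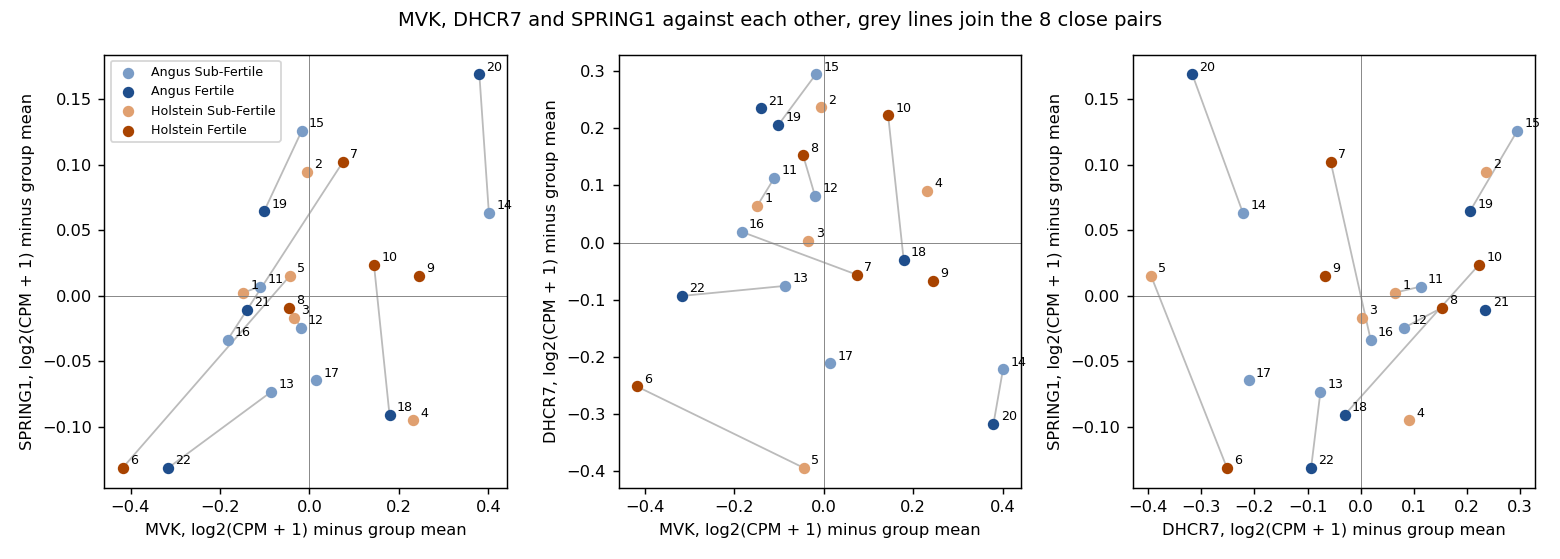
Values of MVK, DHCR7 and SPRING1 against each other in the 22 heifers, as log2(CPM + 1) minus the mean of the group of breed and fertility (both axes). Points are heifers with their numbers, colours are the 4 groups and grey lines join the 8 close pairs. MVK and SPRING1 have r = 0.483, MVK and DHCR7 r = -0.148, and DHCR7 and SPRING1 r = 0.154, and heifers 14 and 20 lie apart at high MVK.

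The genes most like each of the 3 across heifers were described by the same r over 22 heifers, among the 1017 named genes with a mean above 10 CPM, with no test. For MVK they were UROD, of heme synthesis (r = 0.750), MRPL37, of the mitochondrial ribosome (r = 0.728), POLR3C, of RNA polymerase III (r = 0.712), C7H19orf53 (r = 0.709) and the mitochondrial helicase DDX28 (r = 0.696). For SPRING1 they were VPS25, of the ESCRT machinery (r = 0.798), the glutaminyl-tRNA synthetase QARS1 (r = 0.766), WDR6 (r = 0.727), DGCR6L (r = 0.713) and TUBGCP2, of the gamma-tubulin complex (r = 0.707). For DHCR7 they were CRYBB1, a crystallin (r = 0.685), NRN1, neuritin (r = 0.674), TMED3, of vesicle traffic (r = 0.630), TCF19 (r = 0.626) and the mitotic ubiquitin-conjugating enzyme UBE2S (r = 0.618). No gene stood in the lists of 2 of the genes. Names cover only genes with small fertility p-values, and genes without a name or at lower levels stood nearer. Among all genes, the listed genes ranked from 9 to 28 for MVK, from 7 to 111 for SPRING1 and from 28 to 72 for DHCR7. The 5 genes most like the mean of the 3 were STOML2, ADSL, DDX28, CHID1 and CCNF, with r from 0.714 to 0.768. For comparison, r of all genes had a median of 0.08 with MVK, 0.01 with DHCR7 and 0.09 with SPRING1, and 95% of genes lay between -0.401 and 0.533, between -0.497 and 0.508, and between -0.497 and 0.641. The values of these points share libraries and close pairs.

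Markers of cell types in the mixture were set beside the genes in the same way, over 15 relations with 4 marker lists and total counts, none of which passed after adjustment. The score of 2 of 6 platelet markers (ITGA2B and GP9) had an r of 0.526 with MVK (rho 0.530, permutation p = 0.0120, adjusted p = 0.0900) and of 0.540 with SPRING1 (rho 0.554, permutation p = 0.00973, adjusted p = 0.0900). The adjusted p of both values of rho was 0.0886, and without heifers 21 and 22 r was 0.576 and 0.515. The summed level of these platelet markers was 33.1 to 68.8 CPM in Angus Fertile, 33.8 to 50.6 CPM in Angus Sub-Fertile, 37.5 to 73.1 CPM in Holstein Fertile and 33.8 to 47.2 CPM in Holstein Sub-Fertile heifers. The sum is mostly ITGA2B, which averaged 44.7 CPM against 2.42 CPM for GP9. The score used for r, a mean of log2(CPM + 1), gives both genes the same weight. DHCR7 had an r of 0.450 with the score of 6 of 6 markers of proliferating cells such as MKI67 and TOP2A (rho 0.503, permutation p = 0.0353, adjusted p = 0.177; the adjusted p of rho was 0.0920), and 0.514 without heifers 10 and 18. Their summed level was 432.8 to 1658 CPM in Angus Fertile, 494.9 to 793.7 CPM in Angus Sub-Fertile, 448.0 to 1757 CPM in Holstein Fertile and 507.7 to 841.9 CPM in Holstein Sub-Fertile heifers.

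With 4 of 10 neutrophil markers (CSF3R, MMP9, TGM3 and PGLYRP1) DHCR7 had an r of -0.403 (rho -0.457, permutation p = 0.0627, adjusted p = 0.196; the adjusted p of rho was 0.125), and -0.285 without heifers 6 and 8. The summed level of these markers was 241.8 to 390.8 CPM in Angus Fertile, 230.3 to 527.8 CPM in Angus Sub-Fertile, 119.2 to 353.4 CPM in Holstein Fertile and 261.8 to 651.5 CPM in Holstein Sub-Fertile heifers. This sum is mostly CSF3R, at a mean of 283 CPM, whereas the score also gives equal weight to MMP9 and PGLYRP1, at 2.13 and 1.36 CPM. With 2 of 7 eosinophil and basophil markers (CCR3 and FCER1A), at 31.3 to 73.4 CPM over all heifers, r was 0.305 for MVK, -0.400 for DHCR7 and 0.105 for SPRING1 (adjusted permutation p = 0.417, 0.196 and 0.740). With log2 total counts r was 0.181 for MVK, 0.0248 for DHCR7 and 0.231 for SPRING1 (adjusted permutation p = 0.630, 0.912 and 0.557). None of the named markers was at 0 in any heifer. These markers were themselves named because of their fertility p-values, and their part in the differences between Fertile and Sub-Fertile heifers was not tested.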

How the data were processed

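The authors aligned paired reads to the cattle genome ARS-UCD1.2 with hisat2, used Samtools and biobambam2 to take out duplicates and secondary alignments, and featureCounts to count the fragments of Ensembl genes. Genome build and tools (ARS-UCD1.2, HISAT2, SAMtools) stand in the submitters' processing notes with no version, and the strand setting was not given in the sources used here. Deposited values are the raw counts of the authors with no normalization, for 22 heifers and 27607 genes, of which 4389 had no count. The CPM values were computed here from those counts. Depth was 12182400 to 49228035 counts per heifer, and intervals and coefficients from counting cover counting error only.

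The filter kept every gene that exceeded 1 CPM in 5 or more heifers (13535 genes, at least 99.87% of the counts of every heifer). The study's further filters on FPKM and biotype were not applied. Breed and fertility were fitted with the robust quasi-likelihood test of edgeR 4.0.16 (R 4.3.3), with total counts as library sizes and Benjamini-Hochberg adjustment over all genes, and the interaction in a model that held it. DESeq2 1.42.0 was an alternative. Standard errors are the log2 fold change divided by the square root of F. The 95% intervals use these standard errors with normal quantiles, so they are somewhat narrower than the quasi-likelihood F test would give. Names came from 1401 annotated rows of the study's supplement (1229 named genes), which are those of smallest fertility p, and the authors' fold changes and p-values beside them were not used. Correlations used log2(CPM + 1) and 100000 two-sided permutations (numpy 2.4.6, scipy 1.17.1, Python 3.11.15), and a marker score is the mean over the named genes of a list. Heifers formed a close pair where each was the nearest heifer of the other and their biological coefficient of variation (genes averaging over 20 CPM) was below 0.5 of the median of all 231 pairings.

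The members, the gene lists, the marker lists and the tests were chosen with earlier results of these data known. The genes named were MVK, DHCR7 and SPRING1, and for each member and for their mean the 5 named genes above 10 CPM with the highest r. Some further genes of the planned rule are not reported here. Sequences and promoter motifs were not analysed here. The fits were first tested on simulated data with known changes. Of 1.2-fold changes they recovered 22% for fertility, 20% for breed and 0% for the interaction, at an adjusted p under 0.05. Of 2-fold changes they recovered 86%, 94% and 56%. In that setting 1.2-fold changes were mostly missed, and the differences of these genes are smaller. The simulated heifers were independent, without close pairs, and changes of up to 4-fold were added in other genes. Recovery was pooled over genes of any spread. The shares may therefore not hold for these genes, and SPRING1 has a lower spread than most.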

Additional observations from a re-analysis of the deposited data

Results flagged for a closer look

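The 12 groups of values (4 groups of heifers for each of MVK, DHCR7 and SPRING1) were searched for a highest or lowest heifer far from the rest, by Dixon's ratio of its gap to the range of the group. Chance gives such a value in about 1 of 20 groups, and 1 was found. The MVK level of Angus Sub-Fertile heifer 14 was 50.9 CPM, above the next heifer of its group at 38.7 CPM, a gap of 0.706 of the range, and its close-pair partner, Angus Fertile heifer 20, was at 55.0 CPM.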

How the results depend on the processing

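The signs, and the sides of the threshold where one was used, held under DESeq2, TMM factors, non-robust estimation and both other filters for MVK, DHCR7 and SPRING1. For fertility, a log2 fold change counted as held if its sign stayed and it moved by less than the SD within groups. That SD was 0.22 for MVK, so its fall from 0.22 to 0.06 with the close pairs as blocks counts as held. For DHCR7 it was 0.21, against a log2 fold change of 0.14. In both genes the SD was larger than the value itself, so any fall without a change of sign counts as held. For breed and interaction no member passed in the main fit, and staying short of the threshold with the same sign counts as held. Such rules are easily met, so the count that follows is not a measure of robustness. By these rules 96 of 100 comparisons of a result with a setting other than a heifer left out held. The exceptions were the number of genes for breed, 15 by DESeq2 and 0 by edgeR, the breed log2 fold changes of MVK (0.0416) and DHCR7 (0.0082) with the close pairs as blocks, and the interaction of DHCR7 (-0.0493) without heifers 10 and 18, a fit chosen after seeing the data. With 1 heifer left out, the interaction of DHCR7 ranged from -0.0648 to 0.0849, that of MVK from 0.0777 to 0.266 and that of SPRING1 from 0.0320 to 0.113. The correlation of MVK with SPRING1 ranged from 0.326 to 0.613, that of DHCR7 with SPRING1 from 0.0256 to 0.456 and that of MVK with DHCR7 from -0.376 to 0.0430. The latter turned positive without heifer 20. The breed values stayed between -0.11 and -0.03 for MVK, -0.10 and -0.03 for DHCR7, and -0.16 and -0.12 for SPRING1. The number of genes at an adjusted p under 0.05 was 0 for fertility, breed and interaction in every edgeR fit without 1 heifer. The cause of these changes was not tested. The search for promoter motifs was not run. No paired analysis was possible because heifer numbers are not shared between groups, and the blocks are pairs found in the counts.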
